A study of Homo sapiens with 24 samples.

Results

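Translation initiation factors are described here as the 56 genes of 26249 in the deposited tables whose symbols begin with EIF1 to EIF6, without the kinases whose symbols begin with EIF2AK. The rule reads symbols only and uses no measured value, though the family was taken up with earlier results of these data known. They were followed in 2 established human cell lines of multiple myeloma, H929 and MM1S, in 24 libraries that fall into 8 groups of 3. The groups were H929 with YKL-5-124 (83 nM) at 6 h, H929 with DMSO at 6 h, H929 with YKL-5-124 (83 nM) at 24 h and H929 with DMSO at 24 h, and MM1S with YKL-5-124 (98 nM) and with DMSO at the same times. YKL-5-124, called YKL below, is directed at the kinase CDK7, and DMSO is its vehicle. The dose differed between the lines, and the same dose figure stands on the DMSO labels, so a difference between lines and a difference between doses cannot be told apart. The labels do not say that replicates were separate cultures, so the p-values cover only the spread of the libraries within a group, and that spread may be technical.

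Initiation begins when a small ribosomal subunit carrying eIF1, eIF1A, eIF3, eIF5 and the initiator tRNA held by eIF2 with GTP is brought to the capped end of an mRNA by eIF4F, the complex of the cap-binding protein eIF4E, the scaffold eIF4G and the RNA helicase eIF4A. The eIF4E-binding proteins hold eIF4E away from eIF4G until the kinase complex mTORC1 phosphorylates them, and eIF2 is recharged by its exchange factor eIF2B. Myeloma cells make large amounts of secreted protein, and CDK7 is a kinase of the transcription factor TFIIH, which acts at the start of RNA polymerase II transcription.

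Levels are FPKM from 3′-end libraries. FPKM divides by gene length, which 3′-end reads do not follow, so levels are compared only within a gene between groups. Of the 56 members, 48 had at least 1 FPKM in at least 3 libraries and were tested. EIF1AY was counted among the other 8 without its level. The other 7 were EIF1AX-AS1, EIF1B-AS1, EIF2B5-AS1, EIF3C, EIF3CL, EIF3IP1 and EIF4E1B. EIF3C, which codes for a core subunit of eIF3, lay between 0.0665 and 0.177 FPKM, and its near-identical copy EIF3CL reached 1 FPKM in 2 libraries and at most 1.34. Reads shared by these copies could be split or lost in counting, so neither value is a measure of the subunit's mRNA. The same uncertainty holds for EIF5A and its copy EIF5AL1, for EIF4EBP3, which overlaps a readthrough of ANKHD1, and for the antisense gene EIF3J-AS1, since the sources used here do not say whether counting used strand.

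Tests were run with limma on log2(FPKM + 1) over all 12418 genes that passed the same filter, and a gene is called when its Benjamini-Hochberg adjusted p is below 0.05. Changes on this scale understate those of low genes. Log2 changes are YKL minus DMSO and carry standard errors, and FPKM means carry SDs over 3 libraries. The deposited values were nearly level across ERCC spike-in transcripts, whose median deviation in log2 lay between -0.042 and 0.09 in every library, while the values of genes as a whole still differed between libraries. The scale of H929 YKL libraries at 24 h was 0.558 times that of DMSO libraries, with no overlap (exact two-sided permutation p = 0.1, the smallest that 3 against 3 can give). The scale of YKL libraries was 0.873 times that of DMSO libraries in H929 at 6 h (exact permutation p = 0.5), 0.722 times in MM1S at 6 h (exact permutation p = 0.1) and 0.826 times in MM1S at 24 h (exact permutation p = 0.8). Library scales did not overlap in MM1S at 6 h either, at 0.793 to 0.916 with YKL and 1.04 to 1.24 with DMSO. FPKM groups described below as apart or without overlap are so on the deposited scale, which carries these differences. The MM1S value at 24 h was 1.04 without DMSO replicate 2, whose scale was 0.808 against 0.365 for the lowest library of its group. In these bulk samples, fewer cells and less RNA per cell cannot be told apart. Counts and many single-gene results are therefore also given after median-of-ratios rescaling over 6014 genes, which sets the typical gene at the same level in each library and is called rescaled. A change given without a rescaled value is on the deposited scale only, and its direction can differ after rescaling. Spike-ins were uneven, with an SD above 0.5, in 2 libraries, MM1S YKL 6 h replicate 2 and MM1S DMSO 24 h replicate 1. The H929 marker FGFR3 averaged 23.8 to 71.7 FPKM in the H929 groups and 0.144 to 0.476 FPKM in the MM1S groups, and all 8 plasma cell markers passed the filter. The other line markers were less clear. FGFR3 and WHSC1, the H929 markers, summed with DMSO at 6 h to 92.6 to 124.6 FPKM in H929 and 21.4 to 24.8 FPKM in MM1S. The MM1S marker MAF lay with DMSO at 6 h at 30.03 to 53.98 FPKM in MM1S and 17.7 to 23.4 FPKM in H929. At 24 h its DMSO ranges overlapped, at 10.9 to 24.01 and 13.9 to 18.01 FPKM. Of the markers listed for 3 other kinds of cell (T cells, monocytes, and epithelial cells or fibroblasts), 2 of 6 passed it in each list, with summed levels of at most 4.43 FPKM for T cells in any library, 18.3 FPKM for monocytes, mostly CD68, and 33.9 FPKM for epithelial cells or fibroblasts, mostly KRT18.

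At 6 h with YKL, EIF4A2 had the largest called change of the members in both lines, and it was lower. The share of members lower in MM1S at 6 h was near that of all genes (10.4% and 10%). Most of the family was lower in H929 at 24 h. In H929 at 6 h, 3 of the 48 members (6.25%) were lower and 0 higher, where 2.19% of all tested genes were called, 1.16% lower and 1.03% higher. Those were EIF4A2, EIF3A and EIF5. The count was 2 without DMSO replicate 1 and 1 without any other single library, and EIF4A2 was called each time. The members' median log2 change was -0.24, against -0.06 for all genes. In H929 at 24 h, 42 members (87.5%) were lower and 0 higher, where 38.1% of all genes were called, 35.4% lower and 2.67% higher. The medians were -1.21 for the members and -0.46 for all genes. Changes of low genes are understated on this scale, and the members were not matched to all genes by level. The 42 comprised 4 of 4 members of eIF1, 5 of 5 of eIF2, 5 of 5 of eIF2B, 12 of 13 of eIF3, 10 of 15 of eIF4, 5 of 5 of eIF5 and the single eIF6. These groups follow the symbols and not the protein complexes. EIF2A and EIF2D are counted with eIF2, EIF5A and EIF5B with eIF5, EIF4EBP1 with eIF4 and the antisense EIF3J-AS1 with eIF3. Leaving out 1 library at a time gave 32 to 42 calls, and 32 of the 42 kept the call each time. The 10 that lost it without at least 1 library were EIF2B1, EIF2S1, EIF3F, EIF3H, EIF3I, EIF3K, EIF4A3, EIF4H, EIF5A2 and EIF5AL1. In these H929 libraries the summed plasma cell markers were 2428 to 4604 FPKM with YKL and 6041 to 6915 FPKM with DMSO. The epithelial or fibroblast markers summed to 8.34 to 24.2 FPKM with YKL and 27.03 to 30.03 FPKM with DMSO, the monocyte markers to 11.3 to 16.04 FPKM with YKL and 8.81 to 14.6 FPKM with DMSO, and the T cell markers to 2.82 to 3.25 FPKM with YKL and 2.05 to 4.43 FPKM with DMSO. EPCAM and CD14 averaged at most 0.171 FPKM in either group. The deposited values hold 0 zeros, and the lowest gene value of a library was 0.037 to 0.137 FPKM, so such levels lie near the floor. Of the 6 T cell markers, 5 had an entry. Whether other cells were present or had a part in the result was not tested.

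In MM1S 5 of the 48 members were called at each time. At 6 h, 5 members (10.4%) were lower and 0 higher, where 11% of all genes were called, 10% lower and 0.926% higher, and the medians were -0.48 for the members and -0.29 for all genes. The 5 were EIF4A2, EIF4E, EIF4EBP1, EIF3A and EIF2A. At 24 h, 5 members (10.4%) were again lower and 0 higher, where 7.46% of all genes were called, 6.77% lower and 0.684% higher, and the medians were -0.43 and -0.12. They were EIF4EBP1, EIF4A2, EIF2S3, EIF3E and EIF1. The MM1S counts rested on single libraries. At 6 h the count was 2 without DMSO replicate 1 or YKL replicate 2, 3 without DMSO replicate 2, DMSO replicate 3 or YKL replicate 3, and 4 without YKL replicate 1. At 24 h it was 1 without YKL replicate 1, 2 without DMSO replicate 2 or YKL replicate 2, 5 without DMSO replicate 1 or YKL replicate 3, and 13 without DMSO replicate 3. Fitting only the 2 groups compared called 20 members in MM1S at 6 h, where 19.8% of all genes were called, and 1 member in MM1S at 24 h, where 3.96% were.

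At an unadjusted p below 0.05, 1 member was higher and 5 lower in H929 at 6 h, where 6.51% of all genes were higher and 8.48% lower. By 24 h in H929, 0 were higher and 43 lower (3.65% and 43.2% of all genes). In MM1S 0 were higher and 19 lower at 6 h (2.15% and 25% of all genes), and 1 was higher and 12 lower at 24 h (3.11% and 15.9%).

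After rescaling, the members split into both directions. In H929 at 24 h, 23 members were lower and 3 higher (54.2% together), where 33.3% of all genes were called, 12.5% lower and 20.8% higher. The medians were -0.38 for the members and 0.13 for all genes. The 3 higher members were EIF4EBP2, EIF4G3 and EIF3J-AS1. H929 at 6 h had 6 lower and 2 higher (16.7%), where 9.28% of all genes were called, 4.19% lower and 5.1% higher. That count of 8 was 4 without DMSO replicate 2 or YKL replicate 2, 5 without DMSO replicate 1, YKL replicate 1 or YKL replicate 3, and 6 without DMSO replicate 3. MM1S at 6 h had 3 lower and 3 higher (12.5%), where 15.5% of all genes were called, 7.22% lower and 8.25% higher. This count of 6 was 3 without DMSO replicate 3, 4 without YKL replicate 2 and 5 to 8 without any other library. MM1S at 24 h had 11 lower and 5 higher (33.3%), where 27.8% of all genes were called, 13.3% lower and 14.4% higher. Without 1 library at a time the rescaled counts were 23 to 25 in H929 at 24 h and 15 to 16 in MM1S at 24 h. EIF4A2 was the only one of the 48 called lower in all 4 YKL comparisons, and it was so on both scales. The share of all tested genes called lower in all 4 was not counted, so this is a statement about EIF4A2 and not about the family.

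**Figure D1:**
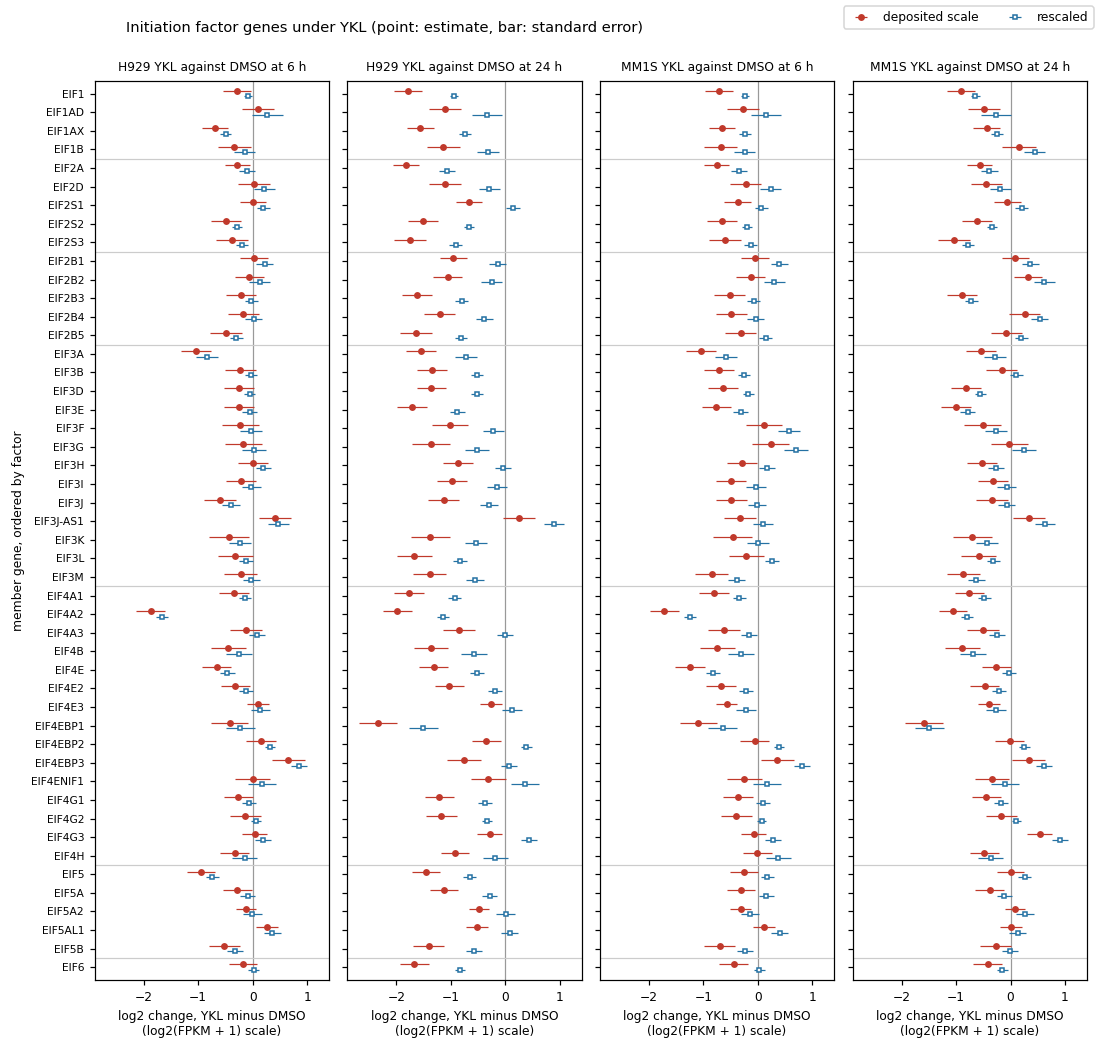
Log2 change of each tested member, YKL minus DMSO on the log2(FPKM + 1) scale, in 4 panels for the lines and times; red circles are the deposited scale, blue squares the rescaled values, and bars are standard errors. EIF4A2 lies between -1.06 and -1.98 as deposited in all 4 panels, while most other members lie far from 0 only in H929 at 24 h.

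EIF4A2 and EIF4A1 code for the paralogous DEAD-box helicases that unwind structure near the cap as the eIF4A subunit of eIF4F. EIF4A2 stood in H929 at 6 h at 41.4, 70.7 and 56.3 FPKM with YKL, against 175, 205 and 236 FPKM with DMSO. Every YKL library lay below every DMSO library, and the level fell to 0.273 of DMSO on the log2(FPKM + 1) scale (-1.87 ± 0.26, adjusted p 0.000402; rescaled -1.67 ± 0.11, adjusted p 7.2e-09). In MM1S at 6 h, EIF4A2 stood at 78.3, 55.2 and 63.5 FPKM with YKL, against 241, 227 and 185 FPKM with DMSO, again without overlap. The change was -1.72 ± 0.26 (adjusted p 0.000333; rescaled -1.25 ± 0.11, adjusted p 3.39e-07).

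At 24 h, EIF4A2 in H929 stood at 41.2, 28.9 and 45.1 FPKM with YKL, against 145, 174 and 139 FPKM with DMSO, a change of -1.98 ± 0.26 (adjusted p 8.23e-06; rescaled -1.15 ± 0.11, adjusted p 1.3e-07). MM1S libraries at 24 h held 39.5, 40.4 and 41.2 FPKM with YKL, against 84.4, 127 and 57.7 FPKM with DMSO. The groups did not overlap in either line. In MM1S the change was -1.06 ± 0.26 (adjusted p 0.0126), and it missed the threshold without DMSO replicate 2 (-0.77, adjusted p 0.0691) and without YKL replicate 1 (-1.04, adjusted p 0.0543). The rescaled change there was -0.79 ± 0.11 (adjusted p 1.57e-05), and the rescaled call held without each of the 6 libraries in all 4 comparisons. The EIF4A2 means of the YKL groups at 24 h were 38.4 ± 8.46 FPKM in H929 and 40.4 ± 0.827 FPKM in MM1S, against DMSO means of 153 ± 18.5 FPKM in H929 and 89.6 ± 34.9 FPKM in MM1S (SD, n = 3 each).

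EIF4A1 was not called at 6 h on either scale. Its H929 libraries at 6 h held 662, 950.2 and 1094 FPKM with YKL, against 1049, 1142 and 1154 FPKM with DMSO, and the groups overlapped (-0.34 ± 0.27, adjusted p 0.635). In MM1S at 6 h the values were 209, 206 and 188 FPKM with YKL, against 352, 380.4 and 326 FPKM with DMSO, without overlap, and the change of -0.81 ± 0.27 missed the threshold (adjusted p 0.0589). By 24 h in H929, EIF4A1 stood at 348, 207 and 361 FPKM with YKL, against 923, 1058 and 1060.1 FPKM with DMSO and was lower on both scales (-1.77 ± 0.27, adjusted p 4.69e-05; rescaled -0.93 ± 0.12, adjusted p 4.48e-06). In MM1S at 24 h it stood at 70.4, 71.6 and 94.1 FPKM with YKL, against 96.6, 221 and 109 FPKM with DMSO (-0.76 ± 0.27, adjusted p 0.104; rescaled -0.48 ± 0.12, adjusted p 0.00374), so the call was made after rescaling only.

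The ratio of EIF4A2 to EIF4A1 within a library does not depend on the library's scale. Its log2 averaged in H929 at 6 h -4.01 ± 0.27 with YKL and -2.45 ± 0.15 with DMSO, a difference of -1.56 with no overlap. In MM1S at 6 h the averages were -1.62 ± 0.25 with YKL and -0.70 ± 0.14 with DMSO (SD, n = 3 each), a difference of -0.92 with no overlap. At 24 h the differences were -0.24 in H929 and -0.31 in MM1S, and the groups overlapped in both lines. These ratios were chosen after the values were seen and were not tested. EIF4A3, the paralog that sits in the exon junction complex, was lower in H929 at 24 h (-0.85 ± 0.29, adjusted p 0.0272) and was not called in the other YKL comparisons. Its rescaled change in H929 at 24 h was -0.01 ± 0.15.

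RefSeq windows were matched by symbol for 45 of the 56 members and 40 of the 48 tested. The tested members without a window were EIF2S2, EIF3A, EIF3E, EIF3G, EIF3H, EIF3L, EIF4EBP1 and EIF3J-AS1. The upstream windows of the 2 helicase genes are shown because the within-library ratio of these paralogs was apart at 6 h in both lines. Sequences are from RefSeq on GRCh38.p14, each the 250 bases before the annotated start, 5′ to 3′ on the gene's strand. EIF4A2 lies at chr3:186783327-186783576 (+) and EIF4A1 at chr17:7572575-7572824 (+). Capitals mark CCAAT and GGGCGG, searched on both strands together with CACGTG, and none of these motifs overlapped another.
EIF4A2: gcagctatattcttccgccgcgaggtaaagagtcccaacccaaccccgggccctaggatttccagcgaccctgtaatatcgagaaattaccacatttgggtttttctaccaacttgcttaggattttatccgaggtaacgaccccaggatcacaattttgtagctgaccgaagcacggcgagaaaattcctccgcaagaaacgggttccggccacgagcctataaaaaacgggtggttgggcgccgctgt
EIF4A1: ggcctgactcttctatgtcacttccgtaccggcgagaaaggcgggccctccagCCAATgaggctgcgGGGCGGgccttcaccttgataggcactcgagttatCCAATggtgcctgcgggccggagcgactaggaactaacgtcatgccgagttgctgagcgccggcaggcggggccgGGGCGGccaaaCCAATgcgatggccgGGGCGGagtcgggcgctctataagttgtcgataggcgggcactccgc
The EIF4A1 window holds GGGCGG at 183, 73 and 47 bases and CCAAT at 197, 148 and 62 bases before the start, and the EIF4A2 window holds none of the 3 motifs. Over 27305 RefSeq windows, searched in the 250 bases before the start only, GGGCGG occurs in 42.3%, CCAAT in 33% and CACGTG in 6.49%. Among the 40 tested members with a window, the shares are 67.5%, 40% and 27.5%. The 27305 windows were not filtered on level as the 40 were, so the 2 sets of shares are not like for like. A match is a description of the letters only.

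EIF4E, the cap-binding subunit of eIF4F, fell by 6 h in MM1S. There it stood at 6.24, 5.45 and 6.96 FPKM with YKL, against 15.7, 15.2 and 17.4 FPKM with DMSO, without overlap (-1.25 ± 0.27, adjusted p 0.00595; rescaled -0.82 ± 0.14, adjusted p 0.000405). In H929 at 6 h it stood at 16.8, 22.5 and 19.8 FPKM with YKL, against 29.1, 35.2 and 30.7 FPKM with DMSO, also without overlap, but the change of -0.66 ± 0.27 was called only after rescaling (-0.46 ± 0.14, adjusted p 0.0366), and that call ended without any 1 of the 6 libraries, with adjusted p from 0.0572 to 0.146. At 24 h in H929 the values were 13.6, 7.32 and 17.4 FPKM with YKL, against 28.4, 39.2 and 28.3 FPKM with DMSO, a change of -1.32 ± 0.27 (adjusted p 0.000704; rescaled -0.52 ± 0.14). MM1S libraries at 24 h overlapped, with 3.42, 3.58 and 4.25 FPKM with YKL, against 3.29, 7.995 and 3.75 FPKM with DMSO (-0.26 ± 0.27, adjusted p 0.699). The DMSO level in MM1S at 24 h was itself low, at 5.01 ± 2.59 FPKM, against 16.1 ± 1.19 FPKM at 6 h.

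**Figure D2:**
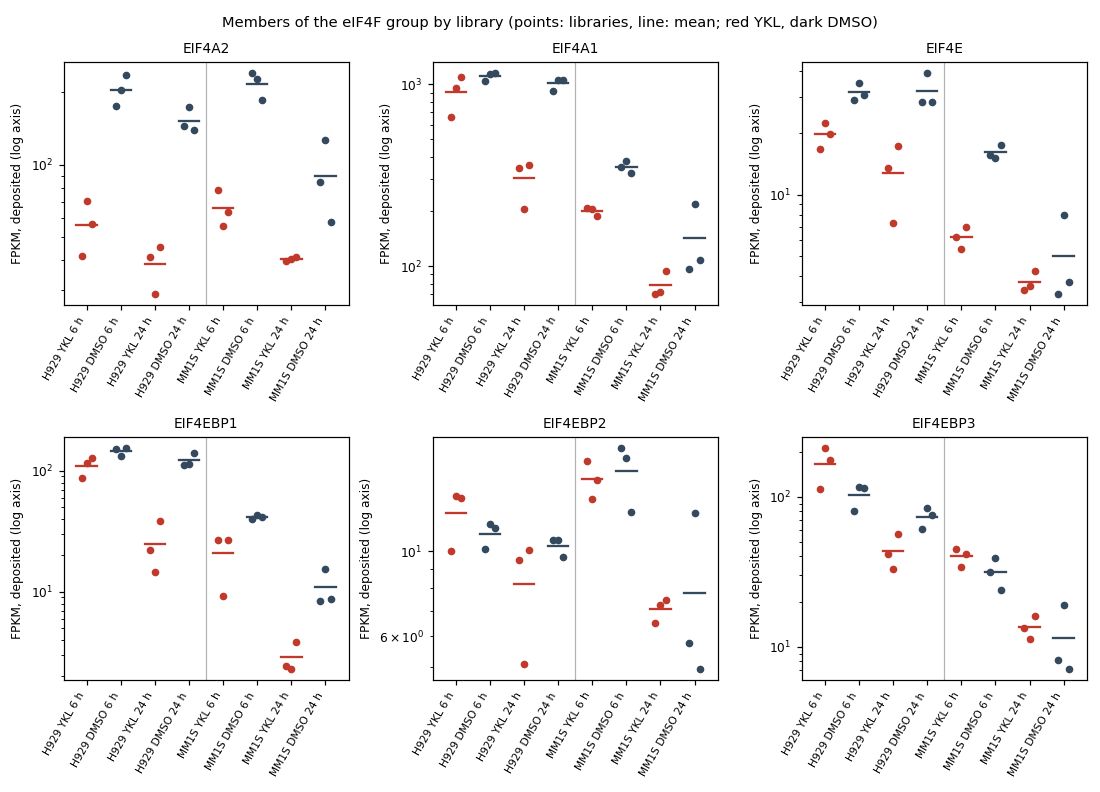
FPKM per library on a log axis for EIF4A2, EIF4A1, EIF4E and the binding protein genes EIF4EBP1, EIF4EBP2 and EIF4EBP3 in the 8 groups, with YKL (red) left of DMSO (dark); points are libraries and lines are means. The YKL points lie below all DMSO points for EIF4A2 and EIF4EBP1 in each line and time.

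EIF4E2 codes for a cap-binding homologue of eIF4E, and it was lower in H929 at 24 h alone (-1.03 ± 0.27, adjusted p 0.00485; rescaled -0.20 ± 0.13, not called). EIF4E3 was not called in any YKL comparison. EIF4ENIF1, which codes for the eIF4E transporter, was not called either, with changes from -0.34 to 0.37 over both scales.

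Of the scaffold genes, EIF4G1 and EIF4G2 were called under YKL in H929 at 24 h only. EIF4G1, which bridges eIF4E, eIF4A and eIF3, stood in H929 at 24 h at 151, 92.7 and 133 FPKM with YKL, against 295, 291 and 271 FPKM with DMSO, without overlap (-1.21 ± 0.27, adjusted p 0.00145; rescaled -0.37 ± 0.13, adjusted p 0.03). The rescaled call ended without DMSO replicate 1, DMSO replicate 3 or YKL replicate 3, with adjusted p up to 0.195. At 6 h in H929 it stood at 178, 262 and 282 FPKM with YKL, against 243, 315 and 298 FPKM with DMSO, and the groups overlapped (-0.26 ± 0.27, adjusted p 0.734). In MM1S the values were 123, 129.5 and 97.3 with YKL against 152, 183 and 121 with DMSO at 6 h (FPKM; -0.37 ± 0.27, adjusted p 0.398) and 63.8, 54.5 and 62.2 with YKL against 74.4, 131 and 56.9 with DMSO at 24 h (-0.45 ± 0.27, adjusted p 0.414). The groups overlapped at both times. After rescaling, the MM1S means at 6 h were 141 FPKM with YKL and 131 FPKM with DMSO, so the direction there depends on the scale.

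EIF4G2, also called DAP5, codes for a scaffold that lacks the eIF4E-binding part. In H929 at 24 h it stood at 233, 129 and 265 FPKM with YKL, against 492, 474 and 400.1 FPKM with DMSO (-1.18 ± 0.29, adjusted p 0.00267; rescaled -0.34 ± 0.09, adjusted p 0.00573). At 6 h in H929 the values were 314, 519 and 471 FPKM with YKL, against 435, 511 and 459 FPKM with DMSO, with overlap (-0.14 ± 0.29, adjusted p 0.904). MM1S values were 194, 183 and 185 with YKL against 253, 253 and 236 with DMSO at 6 h (FPKM; -0.40 ± 0.29, adjusted p 0.382), where the groups did not overlap. At 24 h they were 93.04, 89.1 and 110.3 with YKL against 96.5, 181 and 74.1 with DMSO (-0.17 ± 0.29, adjusted p 0.847), with overlap. After rescaling the MM1S groups overlapped at 6 h too, with means of 226 FPKM with YKL and 216 FPKM with DMSO.

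EIF4G3, the paralog of EIF4G1, was called higher at 24 h in both lines after rescaling, though the H929 call depended on single libraries. MM1S libraries held 2.72, 2.56 and 2.32 FPKM with YKL, against 1.22, 2.34 and 0.956 FPKM with DMSO at 24 h. The deposited change of 0.54 ± 0.23 was not called (adjusted p 0.18), and the rescaled change of 0.91 ± 0.15 was called (adjusted p 0.000111), also without each of the 6 libraries. In H929 at 24 h the values were 6.21, 4.82 and 8.44 FPKM with YKL, against 8.56, 9.23 and 6.35 FPKM with DMSO, with a rescaled change of 0.43 ± 0.15 (adjusted p 0.0308) that was called in only 2 of the 6 fits without 1 library, with adjusted p up to 0.142. EIF4B and EIF4H, cofactors of the helicase, were lower in H929 at 24 h (-1.37 ± 0.32 and -0.92 ± 0.26; adjusted p 0.002 and 0.00862), and neither was called there after rescaling. EIF4B was lower in MM1S at 24 h after rescaling (-0.68 ± 0.24, adjusted p 0.0403). That change was -0.23 (adjusted p 0.259) without DMSO replicate 1, one of the 2 libraries with uneven spike-ins, and the call also ended without YKL replicate 1 or YKL replicate 3.

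Of the 3 genes for eIF4E-binding proteins, EIF4EBP1 was called lower at 24 h in both lines. EIF4EBP1 had the largest log2 change of any tested member in H929 at 24 h, where it stood at 22.2, 14.7 and 38.2 FPKM with YKL, against 112, 114 and 142 FPKM with DMSO. The groups did not overlap, and the level was 0.198 of DMSO on the log2(FPKM + 1) scale (-2.34 ± 0.34, adjusted p 2.43e-05; rescaled -1.51 ± 0.27, adjusted p 0.000182). MM1S libraries at 24 h held 2.43, 2.31 and 3.87 FPKM with YKL, against 8.44, 15.6 and 8.68 FPKM with DMSO, the largest member change there as well (-1.59 ± 0.34, adjusted p 0.00416; rescaled -1.5 ± 0.27, adjusted p 0.000258).

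At 6 h EIF4EBP1 was called in MM1S only. In H929 it stood at 87.4, 117 and 127 FPKM with YKL, against 152, 133 and 154 FPKM with DMSO, without overlap but not called (-0.42 ± 0.34, adjusted p 0.633). In MM1S it stood at 27.1, 9.16 and 27 FPKM with YKL, against 40.2, 43.3 and 41.5 FPKM with DMSO (-1.09 ± 0.34, adjusted p 0.0423; rescaled -0.64 ± 0.27, adjusted p 0.11). The low value belonged to YKL replicate 2, one of the 2 libraries with uneven spike-ins, and without it the deposited change was -0.61 (adjusted p 0.27). The deposited call also ended without any 1 DMSO library.

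EIF4EBP2 codes for a second binding protein and had no called change on the deposited scale. Its values were 10.01, 14 and 13.8 with YKL against 10.1, 11.8 and 11.5 with DMSO in H929 at 6 h (FPKM) and 9.49, 5.09 and 10.1 with YKL against 10.7, 10.7 and 9.68 with DMSO at 24 h, and the groups overlapped at both times. After rescaling it was higher at 6 h (0.31 ± 0.10, adjusted p 0.0451) and at 24 h (0.39 ± 0.10, adjusted p 0.00374), where the deposited change was -0.35 ± 0.27. The 6 h call ended without any 1 of the 6 libraries, with adjusted p from 0.0598 to 0.154, and the 24 h call held without each. In MM1S the values were 17.2, 13.7 and 15.4 with YKL against 18.6, 17.5 and 12.7 with DMSO at 6 h and 6.52, 7.25 and 7.47 with YKL against 5.75, 12.6 and 4.93 with DMSO at 24 h, again with overlap. Its rescaled change was 0.38 ± 0.10 at 6 h (adjusted p 0.0103) and 0.25 ± 0.10 at 24 h (adjusted p 0.057), and the 6 h call ended without DMSO replicate 3 (adjusted p 0.0604).

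EIF4EBP3, the third binding protein gene, was higher after rescaling in 3 of the 4 comparisons. In H929 at 6 h it stood at 113, 211 and 176 FPKM with YKL, against 79.8, 117 and 114 FPKM with DMSO (deposited 0.66 ± 0.31, adjusted p 0.315; rescaled 0.85 ± 0.15, adjusted p 0.00107). The groups overlapped only between the lowest YKL and the 2 highest DMSO libraries. In MM1S the rescaled change was 0.82 ± 0.15 at 6 h (adjusted p 0.000975) and 0.62 ± 0.15 at 24 h (adjusted p 0.00336), and these 3 rescaled calls held without each of the 6 libraries of their comparison. In H929 at 24 h it stood at 41.8, 32.8 and 56.04 FPKM with YKL, against 60.5, 84.6 and 75.6 FPKM with DMSO (-0.76 ± 0.31, adjusted p 0.0543; rescaled 0.06 ± 0.15). The overlap of EIF4EBP3 with the ANKHD1 readthrough was not resolved in these values.

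Within libraries, the log2 ratio of EIF4EBP1 to EIF4EBP2 was lower with YKL than with DMSO in every comparison, without overlap. The differences were -0.59 in H929 and -1.08 in MM1S at 6 h, and -1.99 in H929 and -1.90 in MM1S at 24 h. In MM1S at 24 h the mean ratio was -1.34 ± 0.36 with YKL and 0.56 ± 0.26 with DMSO (SD, n = 3 each). The log2 ratio of EIF4EBP3 to EIF4EBP1 was higher with YKL in every comparison, by 1.09 to 2.28 and without overlap. These ratios were chosen after the values were seen and share the gene EIF4EBP1.

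**Figure D3:**
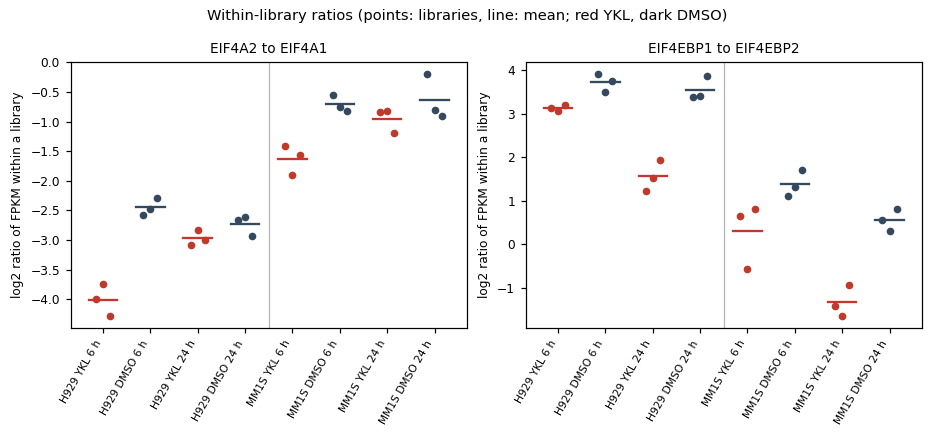
Log2 of the EIF4A2 to EIF4A1 ratio and of the EIF4EBP1 to EIF4EBP2 ratio in each library, with YKL (red) left of DMSO (dark) in each line and time; points are libraries and lines are means. The first ratio is apart between YKL and DMSO at 6 h and overlaps at 24 h, and the second is apart in all 4 pairs of groups.

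Among the genes for subunits of eIF3, the scaffold that joins the small subunit to eIF4G, EIF3A fell early. H929 libraries at 6 h held 44.9, 52.3 and 55.9 FPKM with YKL, against 77.3, 162 and 93.8 FPKM with DMSO, without overlap (-1.04 ± 0.28, adjusted p 0.0463; rescaled -0.84 ± 0.20, adjusted p 0.0111). DMSO replicate 2 was the highest library, and without it the deposited change was -0.73 (adjusted p 0.309). In MM1S at 6 h the values were 24.9, 22.1 and 24.9 FPKM with YKL, against 46.9, 41.1 and 66.96 FPKM with DMSO, also without overlap (-1.05 ± 0.28, adjusted p 0.0181; rescaled -0.59 ± 0.20, adjusted p 0.05, not called). The deposited call ended without any of 5 libraries in H929 and 4 in MM1S, with adjusted p up to 0.309 and 0.0844. The rescaled call in H929 ended without DMSO replicate 2 or YKL replicate 2, with adjusted p up to 0.0888.

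At 24 h EIF3A stood in H929 at 39.5, 25.8 and 51.6 FPKM with YKL, against 106, 119 and 110.4 FPKM with DMSO (-1.55 ± 0.28, adjusted p 0.000174; rescaled -0.72 ± 0.20, adjusted p 0.00826). In MM1S at 24 h the values were 13.5, 16.4 and 18.5 FPKM with YKL, against 23.8, 30.6 and 18.3 FPKM with DMSO, and the highest YKL value just passed the lowest DMSO value (-0.54 ± 0.28, adjusted p 0.295). EIF3B, another core subunit, stood in H929 at 24 h at 27.4, 16.2 and 31.1 FPKM with YKL, against 55.2, 67.4 and 65.5 FPKM with DMSO (-1.34 ± 0.28, adjusted p 0.000715; rescaled -0.52 ± 0.12, adjusted p 0.0016). It was not called in H929 at 6 h (47.6, 76.3 and 72.3 with YKL against 71.95, 68.4 and 85.6 with DMSO FPKM; -0.22 ± 0.28, adjusted p 0.796), where the groups overlapped.

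In MM1S, EIF3B stood at 6 h at 55.9, 51.7 and 56.9 FPKM with YKL, against 95.7, 98.96 and 78.95 FPKM with DMSO, without overlap (-0.72 ± 0.28, adjusted p 0.0957). At 24 h it stood at 24.1, 23.8 and 24.4 FPKM with YKL, against 20.1, 46.9 and 21.1 FPKM with DMSO, and 2 of the 3 DMSO values lay below all YKL values (-0.17 ± 0.28, adjusted p 0.842). EIF3E, a subunit that contacts eIF4G, was called at 24 h in both lines. Its values were 50.2, 35.99 and 72.2 FPKM with YKL, against 158, 196 and 155 FPKM with DMSO in H929 (-1.71 ± 0.27, adjusted p 5.98e-05; rescaled -0.88 ± 0.14). In MM1S they were 5.41, 6.93 and 7.81 FPKM with YKL, against 16.2, 20.7 and 8.57 FPKM with DMSO, without overlap (-1.0 ± 0.27, adjusted p 0.0245; rescaled -0.79 ± 0.14, adjusted p 0.000233). The MM1S deposited call ended without either of 2 DMSO or either of 2 YKL libraries, with adjusted p up to 0.135.

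The other called eIF3 genes of H929 at 24 h were EIF3D, EIF3F, EIF3G, EIF3H, EIF3I, EIF3J, EIF3K, EIF3L and EIF3M, with changes from -1.67 for EIF3L to -0.87 for EIF3H. After rescaling, 7 eIF3 genes were lower in H929 at 24 h, of which EIF3K and EIF3M lost the call without at least 1 library, and EIF3J-AS1 was higher (0.90 ± 0.19, adjusted p 0.000845; deposited 0.26 ± 0.29). In MM1S, EIF3G was higher at 6 h after rescaling (0.70 ± 0.22, adjusted p 0.0372), with values of 68.1, 59.2 and 70.1 FPKM with YKL, against 69.98, 69.9 and 34.9 FPKM with DMSO. Here DMSO replicate 3 lay far below the other 2 DMSO libraries, and the rescaled call ended without it or without any 1 YKL library, with adjusted p up to 0.204.

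EIF5 is the GTPase-activating protein of eIF2, and EIF1AX codes for eIF1A, which with eIF1 keeps the subunit open for scanning. EIF5 stood in H929 at 6 h at 18.4, 26.9 and 24.4 FPKM with YKL, against 39.6, 50.3 and 46.3 FPKM with DMSO, without overlap (-0.95 ± 0.25, adjusted p 0.0493; rescaled -0.74 ± 0.12, adjusted p 0.000498). The deposited call ended without any 1 of the 6 libraries, with adjusted p from 0.0624 to 0.204. At 24 h it stood at 14.3, 8.49 and 16.3 FPKM with YKL, against 35.1, 38.5 and 35.8 FPKM with DMSO (-1.46 ± 0.25, adjusted p 0.000137; rescaled -0.65 ± 0.12, adjusted p 0.000228). MM1S values were 8.47, 8.57 and 9.16 with YKL against 9.32, 13.9 and 9.24 with DMSO at 6 h (FPKM; -0.26 ± 0.25, adjusted p 0.549) and 3.26, 3.65 and 4.65 with YKL against 3.75, 5.81 and 2.46 with DMSO at 24 h (-0.00 ± 0.25, adjusted p 1). The groups in MM1S were apart at 6 h by under 1 FPKM and overlapped at 24 h. After rescaling they overlapped at 6 h, with means of 10.6 FPKM with YKL and 9.34 FPKM with DMSO. The rescaled means at 24 h were 9.21 FPKM with YKL and 7.53 FPKM with DMSO.

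EIF1AX stood in H929 at 6 h at 53.5, 66.6 and 68.7 FPKM with YKL, against 82.6, 123 and 104 FPKM with DMSO, without overlap (-0.70 ± 0.24, adjusted p 0.144), and was called only after rescaling (-0.50 ± 0.11, adjusted p 0.00705). At 24 h it stood at 37.4, 23.5 and 44.7 FPKM with YKL, against 98.8, 109 and 99.9 FPKM with DMSO (-1.56 ± 0.24, adjusted p 4.78e-05; rescaled -0.73 ± 0.11). In MM1S the levels were lower throughout, with 8.34, 6.03 and 5.86 with YKL against 10.1, 12.99 and 10.4 with DMSO at 6 h (FPKM; -0.66 ± 0.24, adjusted p 0.0823) and 2.75, 2.94 and 3.72 with YKL against 4.33, 6.37 and 3.45 with DMSO at 24 h (-0.44 ± 0.24, adjusted p 0.349). The MM1S groups were apart at 6 h and overlapped at 24 h. After rescaling they overlapped at 6 h, with means of 8.06 FPKM with YKL and 9.70 FPKM with DMSO.

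**Figure D4:**
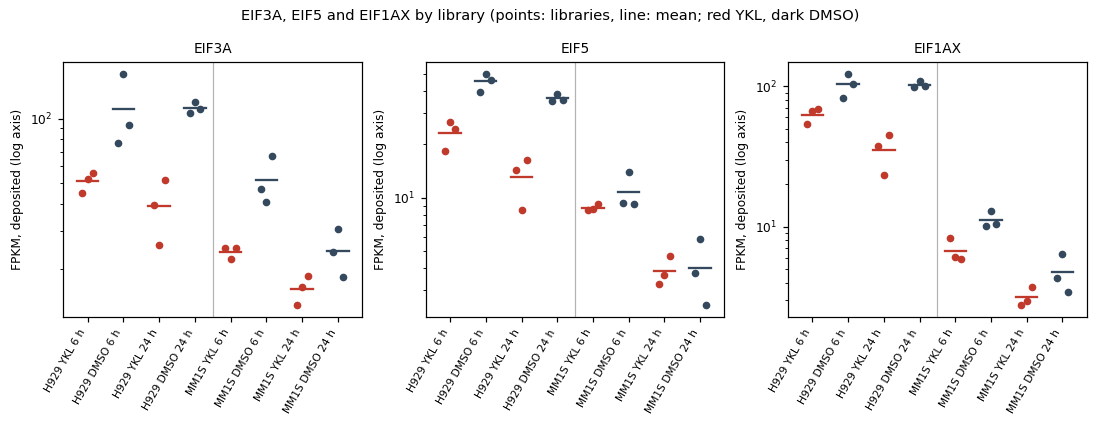
FPKM per library for EIF3A, EIF5 and EIF1AX in the 8 groups, with YKL (red) left of DMSO (dark); points are libraries and lines are means. In H929 the YKL points lie below all DMSO points at both times for each of the 3 genes, and in MM1S they do so at 6 h only.

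EIF1, which guards the choice of the start codon, was called at 24 h in both lines. In H929 it stood at 317, 182 and 367 FPKM with YKL, against 912, 1039 and 915 FPKM with DMSO (-1.78 ± 0.26, adjusted p 1.99e-05; rescaled -0.94 ± 0.07, adjusted p 1.32e-08). In MM1S the values were 136, 148 and 164 FPKM with YKL, against 255, 415 and 212 FPKM with DMSO (-0.92 ± 0.26, adjusted p 0.0277; rescaled -0.65 ± 0.07, adjusted p 1.9e-06). Neither pair of groups overlapped. The MM1S deposited call ended without DMSO replicate 2 or any 1 YKL library, with adjusted p from 0.0519 to 0.129.

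At 6 h EIF1 stood in H929 at 708, 1002 and 967 FPKM with YKL, against 985, 1122 and 1117 FPKM with DMSO, with overlap (-0.28 ± 0.26, adjusted p 0.685). In MM1S at 6 h it stood at 382, 332 and 384 FPKM with YKL, against 609, 626 and 563 FPKM with DMSO, without overlap (-0.71 ± 0.26, adjusted p 0.0749; rescaled -0.24 ± 0.07, adjusted p 0.0324). The rescaled call ended without any of 4 libraries, DMSO replicates 2 and 3 and YKL replicates 1 and 2, with adjusted p up to 0.118. The paralog EIF1B and the eIF1A-domain gene EIF1AD were lower in H929 at 24 h (-1.14 ± 0.30 and -1.11 ± 0.29) and were not called elsewhere under YKL or after rescaling.

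The eIF2 trimer, which delivers the initiator tRNA, had all its subunit genes called lower at 24 h in H929 as deposited, with EIF2S1 depending on single libraries. EIF2S3 codes for the GTP-binding gamma subunit and stood at 46.2, 25.6 and 57.2 FPKM with YKL, against 149, 145 and 125 FPKM with DMSO (-1.74 ± 0.29, adjusted p 0.000106; rescaled -0.91 ± 0.11, adjusted p 3.78e-06). EIF2S2, the beta subunit gene, stood at 388, 237 and 529.8 FPKM with YKL, against 919, 1191 and 1035 FPKM with DMSO (-1.51 ± 0.27, adjusted p 0.000215; rescaled -0.67 ± 0.09, adjusted p 1.22e-05). EIF2S1, the alpha subunit gene, whose protein is the target of the stress kinases, stood at 23.9, 18.4 and 29.3 FPKM with YKL, against 34.1, 43.9 and 36.3 FPKM with DMSO. Its groups did not overlap, yet its change of -0.67 ± 0.25 (adjusted p 0.0355) became 0.14 ± 0.12 after rescaling (adjusted p 0.406), so its direction depends on the scale. The deposited call ended without any of 4 of the 6 libraries, with adjusted p up to 0.174. The differences between subunits were not tested.

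At 6 h in H929, EIF2S2 stood at 524, 777 and 772 FPKM with YKL, against 817, 1089 and 982 FPKM with DMSO, without overlap (-0.49 ± 0.27, adjusted p 0.424; rescaled -0.30 ± 0.09, adjusted p 0.0481). The rescaled call ended without any 1 of the 6 libraries, with adjusted p from 0.0753 to 0.171. EIF2S1 overlapped there, at 40.6, 54.4 and 56.02 FPKM with YKL, against 44.9, 48.1 and 56.5 FPKM with DMSO (0.01 ± 0.25, adjusted p 0.998). In MM1S, EIF2S3 was the called subunit at 24 h, with 16.7, 19.99 and 23.8 FPKM with YKL, against 34.8, 69.2 and 30.3 FPKM with DMSO, without overlap (-1.03 ± 0.29, adjusted p 0.0323; rescaled -0.78 ± 0.11, adjusted p 3.06e-05). Its deposited call ended without DMSO replicate 2, YKL replicate 1 or YKL replicate 2, with adjusted p up to 0.171.

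EIF2S2 in MM1S stood at 217, 175 and 203 with YKL against 313, 312 and 316 with DMSO at 6 h (FPKM; -0.66 ± 0.27, adjusted p 0.121) and at 80.5, 88.3 and 98.3 with YKL against 115, 208 and 107 with DMSO at 24 h (-0.62 ± 0.27, adjusted p 0.208; rescaled -0.35 ± 0.09, adjusted p 0.00723). EIF2S1 in MM1S stood at 10.4, 9.16 and 11.1 with YKL against 14.9, 12.3 and 13.2 with DMSO at 6 h (-0.37 ± 0.25, adjusted p 0.346) and 4.43, 4.07 and 4.902 with YKL against 4.47, 7.74 and 2.85 with DMSO at 24 h (-0.06 ± 0.25, adjusted p 0.962). The EIF2S2 groups were apart at both times, and the EIF2S1 groups overlapped at 24 h.

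EIF2A codes for a separate factor that can bring initiator tRNA without the trimer. In H929 at 24 h it stood at 2.24, 2.21 and 3.69 FPKM with YKL, against 10.9, 14.95 and 10.3 FPKM with DMSO (-1.82 ± 0.23, adjusted p 5.36e-06; rescaled -1.07 ± 0.15, adjusted p 1.36e-05). In MM1S at 6 h it stood at 5.23, 5.55 and 4.97 FPKM with YKL, against 9.33, 12.02 and 7.704 FPKM with DMSO (-0.75 ± 0.23, adjusted p 0.0394; rescaled -0.34 ± 0.15, adjusted p 0.127). The groups did not overlap in either case, but the MM1S deposited call ended without any of 5 libraries, with adjusted p up to 0.168. EIF2D, another tRNA-delivering factor, was lower at 24 h in H929 as deposited only (-1.11 ± 0.29, adjusted p 0.0045; rescaled -0.29 ± 0.19).

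All 5 subunit genes of eIF2B were lower at 24 h in H929 as deposited, from -1.64 for the catalytic subunit gene EIF2B5 to -0.95 for EIF2B1. After rescaling, EIF2B5 (-0.81 ± 0.12, adjusted p 1.9e-05) and EIF2B3 (-0.80 ± 0.12, adjusted p 3.71e-05) were lower, and EIF2B1, EIF2B2 and EIF2B4 were not called. In MM1S 0 of the 5 were called by limma on the deposited scale, with 0 at an unadjusted p below 0.05 at 6 h and 1 at 24 h. After rescaling at 24 h in MM1S, EIF2B3 was lower (-0.72 ± 0.12, adjusted p 0.00015), and EIF2B2 (0.62 ± 0.19, adjusted p 0.0206) and EIF2B4 (0.54 ± 0.15, adjusted p 0.0124) were higher. EIF2B2 stood there at 3.999, 4.8 and 6.47 FPKM with YKL, against 5.55, 4.61 and 2.04 FPKM with DMSO, with overlap. The rescaled call ended without any of 3 libraries for EIF2B2 (adjusted p up to 0.115) and without DMSO replicate 2 or YKL replicate 3 for EIF2B4 (adjusted p up to 0.069).

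EIF5B, the GTPase that joins the large subunit, stood in H929 at 24 h at 45.6, 23.5 and 53.6 FPKM with YKL, against 104, 105 and 102 FPKM with DMSO (-1.4 ± 0.28, adjusted p 0.000615; rescaled -0.58 ± 0.15, adjusted p 0.00454). At 6 h in H929 it stood at 55.6, 75.8 and 68.8 FPKM with YKL, against 71.4, 125 and 97.2 FPKM with DMSO, with overlap (-0.52 ± 0.28, adjusted p 0.41). In MM1S the values were 33.8, 30.1 and 29.3 with YKL against 50.4, 45.7 and 57.6 with DMSO at 6 h (FPKM; -0.70 ± 0.28, adjusted p 0.115) and 14.8, 20.1 and 22.4 with YKL against 23.03, 32.9 and 15.9 with DMSO at 24 h (-0.27 ± 0.28, adjusted p 0.703). The MM1S groups were apart at 6 h and overlapped at 24 h. After rescaling they overlapped at 6 h, with means of 37.4 FPKM with YKL and 45.1 FPKM with DMSO.

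EIF5A, the hypusine-bearing factor that helps the ribosome through difficult peptide bonds, stood in H929 at 24 h at 236, 145 and 233 FPKM with YKL, against 432, 385 and 499.9 FPKM with DMSO, without overlap (-1.12 ± 0.26, adjusted p 0.00204; rescaled -0.29 ± 0.14, adjusted p 0.125). In H929 at 6 h it stood at 317, 447 and 464 FPKM with YKL, against 408, 519 and 560.4 FPKM with DMSO, with overlap (-0.28 ± 0.26, adjusted p 0.695). MM1S values were 218, 204 and 235 with YKL against 297, 273 and 247 with DMSO at 6 h (FPKM; -0.31 ± 0.26, adjusted p 0.471) and 79.8, 72.5 and 89.8 with YKL against 77.2, 168 and 90.1 with DMSO at 24 h (-0.39 ± 0.26, adjusted p 0.484). The MM1S groups were apart at 6 h and overlapped at 24 h. After rescaling they overlapped at 6 h, with the higher mean under YKL (264 FPKM, against 236 FPKM with DMSO). EIF5A2 and the copy EIF5AL1 were lower at 24 h in H929 as deposited (-0.48 ± 0.19 and -0.52 ± 0.21; adjusted p 0.0454 and 0.0484), at levels of at most 5.66 FPKM in any library.

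EIF6, which keeps the large subunit from joining too early, stood in H929 at 24 h at 299, 177 and 364 FPKM with YKL, against 797, 938 and 835 FPKM with DMSO, without overlap (-1.67 ± 0.26, adjusted p 5.26e-05; rescaled -0.83 ± 0.10, adjusted p 1.96e-06). At 6 h it stood at 732, 1163 and 1104 FPKM with YKL, against 1023, 1079.6 and 1236 FPKM with DMSO, with overlap (-0.18 ± 0.26, adjusted p 0.843). In MM1S it stood at 240.1, 200.03 and 228 with YKL against 288, 339.99 and 282 with DMSO at 6 h (FPKM; -0.44 ± 0.26, adjusted p 0.283) and 66.9, 66.3 and 84.4 with YKL against 85.1, 139 and 76.99 with DMSO at 24 h (-0.42 ± 0.26, adjusted p 0.427). The MM1S groups were apart at 6 h and overlapped at 24 h. After rescaling they overlapped at 6 h, with means of 268 FPKM with YKL and 264 FPKM with DMSO.

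Whether the lines differed in response was tested as the YKL change in H929 minus that in MM1S. At 6 h no member was called (0 of 48 by limma, with 1 at an unadjusted p below 0.05, as had 10.3% of all genes), where 0.169% of all genes were called, 0.0322% with a lower and 0.137% with a higher response in H929. After rescaling, EIF5 was called (-0.91 ± 0.17, adjusted p 0.0105), where 1.14% of all genes were, 0.411% lower and 0.725% higher. At 24 h, EIF5 alone of the 48 was called on the deposited scale (-1.46 ± 0.36, adjusted p 0.0432), where 1.36% of all genes were, 1.07% lower and 0.29% higher. In all, 23 members passed at an unadjusted p below 0.05, as did 20.1% of all genes. The count ran from 0 to 28 without 1 library at a time: it was 28 without MM1S DMSO replicate 2, 9 without H929 YKL replicate 3, 1 without MM1S DMSO replicate 1 and 0 without any other. After rescaling, the response of 9 members was lower in H929 than in MM1S, where 12.3% of all genes were called, 4.32% lower and 8.02% higher. They were EIF2B5 (-1.01), EIF2B4 (-0.92), EIF5 (-0.91 ± 0.17, adjusted p 0.00154), EIF2B2, EIF2A, EIF6, EIF3B, EIF1AX and EIF4G2. Of these, EIF2B2 and EIF2B4 were called higher with YKL in MM1S and were not called in H929. The rescaled count was 5 without H929 DMSO replicate 3 and 6 to 10 without any other library, and EIF2B4, EIF2B5, EIF5 and EIF6 kept the call each time. The EIF4A2 response was not called as different between the lines, at -0.16 ± 0.37 at 6 h (adjusted p 0.936) and -0.92 ± 0.37 at 24 h (adjusted p 0.176).

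The change of the response between times was tested as the 24 h change minus the 6 h change within a line. In H929, the response of 7 members was lower at 24 h than at 6 h, where 6.47% of all genes were called, 6.18% lower and 0.29% higher. These were EIF4EBP1 (-1.92 ± 0.48, adjusted p 0.022), EIF2A (-1.54 ± 0.33, adjusted p 0.00857), EIF1 (-1.5 ± 0.36, adjusted p 0.0171), EIF6 (-1.49 ± 0.37, adjusted p 0.0205), EIF3E, EIF4A1 and EIF2B3. The count was 1 without YKL 6 h replicate 2, without YKL 6 h replicate 3 or without DMSO 24 h replicate 2, 2 without DMSO 6 h replicate 1 or without YKL 24 h replicate 2, and 4 without DMSO 24 h replicate 3. It was 16 without YKL 6 h replicate 1 and 20 without YKL 24 h replicate 3. After rescaling, the response of 13 members was lower at 24 h and that of EIF4A2 was higher (0.52 ± 0.15, adjusted p 0.0342; deposited -0.11), where 10.4% of all genes were called, 4.65% lower and 5.77% higher. The rescaled EIF4A2 change was -1.15 at 24 h and -1.67 at 6 h, and the call of their difference ended without any of 8 of the 12 libraries, with adjusted p up to 0.0988. The rescaled count of 14 was 8 without DMSO 24 h replicate 3, 9 without DMSO 6 h replicate 3, YKL 6 h replicate 2, YKL 6 h replicate 3 or YKL 24 h replicate 2, and 10 to 13 without any other library. In MM1S no member was called (0 of 48 by limma, 1 at an unadjusted p below 0.05, as had 9.07% of all genes), where 0.0805% of all genes were, 0.0483% lower and 0.0322% higher. After rescaling, EIF4E was higher at 24 h than at 6 h (0.80 ± 0.19, adjusted p 0.0107) and EIF2S3, EIF2B3, EIF3L and EIF1 were lower, where 10.6% of all genes were called, 6.28% lower and 4.31% higher. The count of 5 was 3 without YKL 6 h replicate 3, YKL 24 h replicate 1 or YKL 24 h replicate 2 and 4 to 7 without any other library, and EIF4E and EIF2S3 kept the call each time. These comparisons share libraries with those above.

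With DMSO, most members stood higher in H929 than in MM1S, and so did most other genes. Over both times, 43 members were higher and 2 lower in H929, where 72% of all genes were called, 61.7% higher and 10.3% lower, with medians of 1.67 for the members and 0.71 for all genes. EIF1AX differed most: at 6 h it averaged 103 ± 20.4 FPKM in H929 and 11.2 ± 1.602 FPKM in MM1S (SD, n = 3 each), and over both times the log2 difference was 3.65 ± 0.17 (adjusted p 1.28e-14; rescaled 2.49). EIF3G averaged 461 ± 65.2 FPKM in H929 and 58.3 ± 20.2 FPKM in MM1S at 6 h, a difference over both times of 3.58 ± 0.24 (rescaled 2.36). EIF3E (3.1 ± 0.19, rescaled 1.9) and EIF4EBP1 (2.6 ± 0.24, rescaled 1.4) followed.

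The 2 members that stood lower in H929 were EIF4E3 (-1.03 ± 0.14, adjusted p 6.86e-07) and EIF3J-AS1 (-0.97 ± 0.21, adjusted p 0.000207). After rescaling, 30 members were higher and 9 lower in H929, where 67.7% of all genes were called, 26.6% higher and 41.1% lower, with medians of 0.51 for the members and -0.18 for all genes. EIF3B (-0.76), EIF2D (-0.74), EIF2A (-0.29) and EIF2B5 (-0.24) were lower in H929 on the rescaled scale and higher as deposited (0.45, 0.46, 0.80 and 0.97). The deposited call ended without any of 8 of the 12 libraries for EIF3B and 7 for EIF2D, and the rescaled call without either of 2 for EIF2A.

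**Figure D5:**
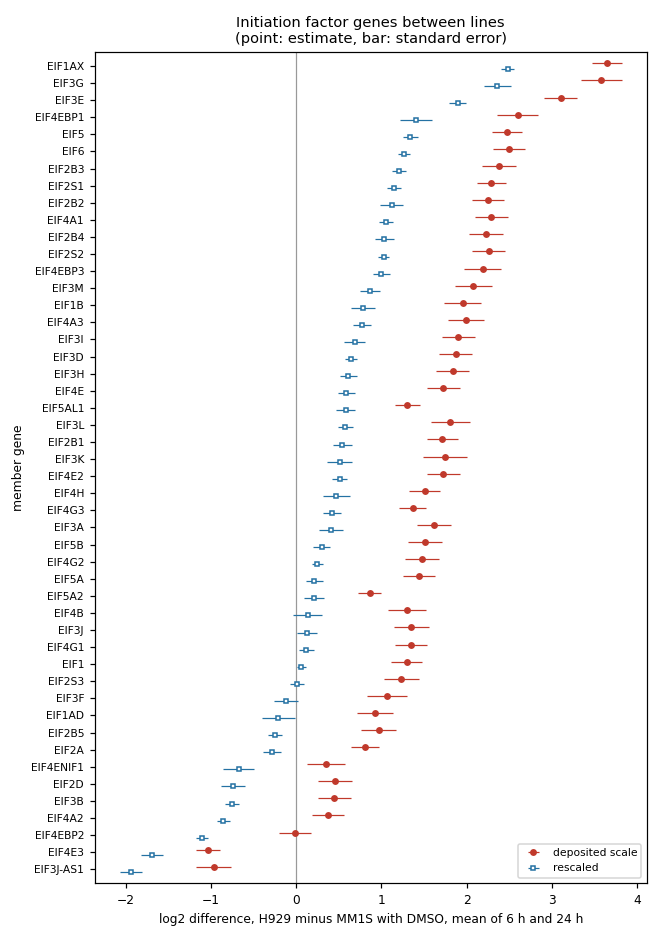
Log2 difference of each tested member between lines with DMSO, H929 minus MM1S averaged over 6 h and 24 h, sorted by the rescaled value; red circles are the deposited scale, blue squares the rescaled values, and bars are standard errors. EIF1AX and EIF3G lie highest, at 3.65 and 3.58 as deposited, and EIF4E3 and EIF3J-AS1 lie lowest.

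Among DMSO libraries alone, most members were lower at 24 h than at 6 h in MM1S, and none was called in H929. In H929, 24 h against 6 h, 0 of 48 members were called by limma (1 at an unadjusted p below 0.05, as had 7.21% of all genes), where 0.145% of all genes were. After rescaling 0 were called (9 at an unadjusted p below 0.05, as had 14.7% of all genes), and 2 without DMSO 6 h replicate 2. In MM1S, 42 members were lower at 24 h than at 6 h, where 56.2% of all genes were called, 56% lower and 0.258% higher, with medians of -1.15 and -0.74. The largest were EIF4EBP1 (-1.89 ± 0.34, adjusted p 0.000211), EIF3B (-1.7 ± 0.28), EIF2B2 (-1.63 ± 0.26) and EIF6 (-1.63 ± 0.26). EIF4EBP1 averaged 10.9 ± 4.06 FPKM at 24 h and 41.7 ± 1.54 FPKM at 6 h. After rescaling, 4 members were lower and 3 higher, where 15.6% of all genes were called, 5.38% lower and 10.3% higher. That count of 7 was 3 without DMSO 6 h replicate 1, DMSO 6 h replicate 2 or DMSO 24 h replicate 1 and 6 to 9 without any other library. The YKL comparison in MM1S at 24 h is set against these lower and more variable DMSO libraries.

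Some initiation factor genes begin with a run of pyrimidines after a cytosine at the transcription start, the terminal oligopyrimidine motif known from mRNAs whose translation follows mTORC1. A C followed by at least 4 pyrimidines at the annotated RefSeq start was found in 9 of the 40 tested members with a window (22.5%). The share was 4.04% of 27305 windows, which include genes that were not tested, so the 2 shares are not like for like. The 30 bases around each of these starts are shown with the run in capitals, from 15 bases before the annotated start, and EIF4A1, which has no such run, is given beside its paralog EIF4A2.
EIF2A, chr3:150546772-150546801 (+): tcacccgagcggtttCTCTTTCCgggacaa
EIF2D, chr1:206612451-206612480 (-): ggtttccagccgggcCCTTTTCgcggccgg
EIF2S3, chrX:24054941-24054970 (+): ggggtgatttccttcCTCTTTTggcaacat
EIF3D, chr22:36529152-36529181 (-): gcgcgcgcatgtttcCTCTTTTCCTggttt
EIF3F, chr11:7987322-7987351 (+): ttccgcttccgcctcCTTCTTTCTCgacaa
EIF3K, chr19:38619173-38619202 (+): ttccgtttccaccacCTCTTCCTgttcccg
EIF3M, chr11:32583816-32583845 (+): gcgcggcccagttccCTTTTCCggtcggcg
EIF4A2, chr3:186783562-186783591 (+): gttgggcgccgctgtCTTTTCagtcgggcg
EIF4B, chr12:53006441-53006470 (+): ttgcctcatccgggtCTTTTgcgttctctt
EIF4A1, chr17:7572810-7572839 (+): aggcgggcactccgccctagtttctaagga
In H929 at 24 h, 9 of these 9 genes and 26 of the other 31 with a window were lower on the deposited scale. After rescaling, 6 of 9 and 12 of 31 were lower and 0 and 2 were higher, with median changes of -0.56 and -0.30. Of all tested genes, 35.4% were lower there as deposited and 12.5% after rescaling. In MM1S at 24 h, 5 of 9 and 3 of 31 were lower and 0 and 4 were higher after rescaling, with medians of -0.56 and -0.03. On the deposited scale the counts there were 2 of 9 and 1 of 31. Of all tested genes, 13.3% were lower in MM1S at 24 h after rescaling and 6.77% as deposited. At 6 h the rescaled medians were -0.10 and -0.02 in H929 and -0.17 and 0.02 in MM1S. This split leaves out the tested members without a window, among them EIF4EBP1 and EIF3A. It was made after earlier results were known and was not tested.

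Genes that act on initiation factors were described from lists of 6 groups. The eIF2 kinases, phosphatase subunits and stress targets had 8 tested genes, of which 1 was lower in H929 at 6 h, and 3 were lower and 1 higher in H929 at 24 h. ATF4, the transcription factor translated when eIF2 is phosphorylated, averaged 331.1 ± 69.9 FPKM with YKL and 782 ± 195 FPKM with DMSO in H929 at 6 h (-1.23 ± 0.31, adjusted p 0.0357), and 169 ± 75.3 and 760.4 ± 32.2 FPKM at 24 h (-2.28 ± 0.31, adjusted p 1.12e-05; SD, n = 3 each). DDIT3, which codes for the stress factor CHOP, and PPP1R15B, which codes for a subunit that brings a phosphatase to eIF2, changed by -1.68 and -1.02 in H929 at 24 h, and the kinase gene EIF2AK3 was higher (0.70 ± 0.28, adjusted p 0.0494). The deposited ATF4 call at 6 h ended without any of 5 of the 6 libraries, with adjusted p up to 0.197. The deposited EIF2AK3 call ended without any of 4, with adjusted p up to 0.178. After rescaling, ATF4 changed by -1.03 in H929 at 6 h (adjusted p 0.000162) and EIF2AK3 by 1.53 at 24 h (adjusted p 1.77e-06). Both rescaled calls held without each of the 6 libraries. Of the 8 genes in H929, 2 were lower at 6 h after rescaling, and 2 were lower and 2 higher at 24 h. In MM1S 0 of the 8 were called by limma on the deposited scale, with 2 at an unadjusted p below 0.05 at each time, and ATF4 and DDIT3 were lower at 24 h after rescaling, each call ending without any of 4 libraries.

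The list of cap-binding, mTORC1 and poly(A) control had 20 tested genes, of which limma called 0 in H929 at 6 h (1 at an unadjusted p below 0.05), 8 lower in H929 at 24 h, 2 lower in MM1S at 6 h and 0 in MM1S at 24 h (4 at an unadjusted p below 0.05). The nuclear cap-binding gene NCBP2 (-1.63), the mTOR partner gene MLST8 (-1.58) and the ribosomal protein gene RPS6 (-1.44) led in H929 at 24 h, and NCBP1 (-0.97) and DDX3X (-0.85) were those of MM1S at 6 h, the DDX3X call ending without any of 4 of the 6 libraries. Of all tested genes, 35.4% were lower in H929 at 24 h and 10% in MM1S at 6 h on that scale. After rescaling, 6 were higher and 5 lower in H929 at 24 h, where 20.8% of all genes were higher and 12.5% lower. In MM1S at 24 h, 3 were higher and 1 lower, where 14.4% of all genes were higher and 13.3% lower. PDCD4, whose protein binds and inhibits eIF4A, averaged 5.09 ± 1.86 FPKM with YKL and 2.85 ± 0.588 FPKM with DMSO in H929 at 24 h (0.63 ± 0.26, adjusted p 0.0591; rescaled 1.19 ± 0.18, adjusted p 4.8e-05). In MM1S at 24 h it averaged 7.89 ± 0.998 FPKM with YKL and 4.64 ± 1.62 FPKM with DMSO (0.69 ± 0.26, adjusted p 0.117; rescaled 1.01 ± 0.18, adjusted p 0.000328; SD, n = 3 each). MKNK2, an eIF4E kinase, was higher after rescaling in all 4 comparisons, by 0.56 to 0.86, and was not called as deposited (0.51, -0.17, 0.09 and 0.58). PDCD4 and MKNK2 were named after their values were seen.

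The hypusine and polyamine enzymes, which make the modified residue of eIF5A, had 6 tested genes. All 6 were lower in H929 at 24 h, 2 in MM1S at 6 h and 2 in MM1S at 24 h. After rescaling, 3 were lower in H929 at 24 h, 1 in each line at 6 h and 4 in MM1S at 24 h. The spermidine synthase gene SRM averaged 172.3 ± 57.9 FPKM with YKL and 635.2 ± 49.0 FPKM with DMSO in H929 at 24 h (-1.93 ± 0.29, adjusted p 3.31e-05). ODC1, the gene for the first enzyme of the pathway, averaged 30.6 ± 5.6 FPKM with YKL and 94.8 ± 38.6 FPKM with DMSO in MM1S at 24 h (-1.52 ± 0.29, adjusted p 0.00125), and SMS changed by -1.67 ± 0.35 there (adjusted p 0.00373). AMD1 was lower in MM1S at 6 h (-1.23 ± 0.27, adjusted p 0.00587), and the other call there, ODC1, ended without any 1 of the 6 libraries.

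Elongation factors had 8 tested genes, with 0 called by limma in H929 at 6 h (2 at an unadjusted p below 0.05), 8 lower in H929 at 24 h, 1 in MM1S at 6 h and 2 in MM1S at 24 h. After rescaling, 4 were lower in H929 at 24 h, 1 in MM1S at 6 h and 3 in MM1S at 24 h. In H929 at 6 h, 1 was higher and 1 lower after rescaling. EEF1E1, which codes for a protein of the tRNA synthetase assembly, was lower in H929 at 24 h (-1.54 ± 0.27, adjusted p 0.000173), in MM1S at 6 h (-1.38 ± 0.27, adjusted p 0.00333) and in MM1S at 24 h (-1.09 ± 0.27, adjusted p 0.0142), where the call ended without DMSO replicate 2 or YKL replicate 1. As deposited, ribosome recycling and rescue genes were lower in 6 of 8 and mitochondrial translation factors in 4 of 9 in H929 at 24 h. At most 1 of each list was called in any other YKL comparison on that scale. After rescaling in H929 at 24 h, 2 of the 8 recycling and rescue genes were lower and 1 higher. Of the 9 mitochondrial factors, 0 were lower and 1 was higher there after rescaling. These lists were chosen with earlier results of these data known, and their counts are read against the same percentages of all genes as those of the members. In H929 at 24 h those percentages were 35.4% lower as deposited, and 12.5% lower and 20.8% higher after rescaling. In H929 at 6 h they were 1.16% lower as deposited, and 4.19% lower and 5.1% higher after rescaling. In MM1S, 10% were lower as deposited at 6 h and 6.77% at 24 h. After rescaling in MM1S, 7.22% were lower and 8.25% higher at 6 h, and 13.3% lower and 14.4% higher at 24 h.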

How the data were processed

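RNA was measured in H929 and MM1S cells with QuantSeq 3′-end libraries of total RNA, per the labels' protocols. Each library has a table of FPKM that the authors deposited, holding 26249 genes and 92 ERCC spike-ins, made with HISAT2 and Cuffnorm on hg19 per the submitters' processing notes, which give no versions. Scaling to the spike-ins is not given in the sources used here. No read counts could be recovered, so depth is unknown and no counting intervals are given. Groups and replicate numbers came from the labels.

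A gene entered the test if 3 or more libraries held 1 FPKM or more. The test was limma-trend (limma 3.58.1, R 4.3.3), two-sided, on log2 of FPKM plus a pseudocount of 1, in 1 fit of 24 libraries with 8 group means, and p-values were adjusted by Benjamini-Hochberg over all 12418 genes. Rescaling divided each library by its median ratio to the geometric mean over 6014 genes of at least 5 FPKM. The scripts were tested on simulated data. The members and lists were chosen with earlier results of these data known. Per YKL comparison, up to 6 members called without overlap were named by size of change, with 17 core genes always, and up to 4 members in the other comparisons. Alternatives were other pseudocounts, filters, scales, library subsets and a replicate block. Leaving out libraries after rescaling was added after seeing the data.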

Additional observations from a re-analysis of the deposited data

Results flagged for a closer look

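The response to YKL differed between the lines at 24 h for EIF5, by the test of the difference itself (an interaction term in limma). Its change was -1.46 ± 0.25 in H929 and -0.00 ± 0.25 in MM1S, a difference of -1.46 (adjusted p 0.0432), which kept its sign but missed the threshold without any of 10 of the 12 libraries.

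In H929 the response differed between 24 h and 6 h for 7 members by the same kind of test. The 24 h change minus the 6 h change was -1.92 for EIF4EBP1, -1.54 for EIF2A, -1.50 for EIF1, -1.49 for EIF6, -1.46 for EIF3E, -1.43 for EIF4A1 and -1.41 for EIF2B3. Of the 7, EIF2A alone kept the call without each of the 12 libraries. For EIF4EBP1 the change was -2.34 ± 0.34 at 24 h and -0.42 ± 0.34 at 6 h. For EIF6 it was -1.67 ± 0.26 at 24 h and -0.18 ± 0.26 at 6 h. The scale of the H929 YKL libraries was 0.558 times that of DMSO at 24 h and 0.873 times at 6 h, and its part in these differences was not tested beyond the rescaled values, which were -1.28 for EIF4EBP1 and -0.85 for EIF6.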

How the results depend on the processing

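The number of members called depended on the scale, the filter and single libraries, and the cause was not tested. Rescaled, the counts were 8 in H929 at 6 h, 26 in H929 at 24 h and 16 in MM1S at 24 h, 1 and 9 for the line differences at 6 h and 24 h, 14 and 5 for the time differences in H929 and MM1S, and 7 for MM1S DMSO over time. Rescaling without the 2 libraries of uneven spike-ins, an alternative chosen after seeing the data, gave 8, 16, 1, 8, 15, 7 and 4 for H929 at 6 h, MM1S at 24 h, the line differences at 6 h and 24 h, the time differences in H929 and MM1S, and MM1S DMSO over time. Leaving those 2 libraries out on the deposited scale gave 1 in H929 at 6 h, 2 in MM1S at 6 h, 3 in MM1S at 24 h and 0 for the line difference at 24 h. Without the filter the counts were 1 in H929 at 6 h, 3 in MM1S at each time, 0 for the line difference at 24 h and 4 for the time difference in H929. Fitting only the groups compared gave 1 in H929 at 6 h, 20 in MM1S at 6 h (19.8% of all genes were called in that fit), 1 in MM1S at 24 h and 0 for the line difference at 24 h. A pseudocount of 0.25 gave 1 in H929 at 6 h and 0 for the line difference at 24 h.

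Replicate numbers did not pair the libraries, since same-numbered libraries had deviations that correlated by -0.11 to 0.18, and only in 2 of the 12 cases was the own number the best match. A replicate block gave 1 call in H929 at 6 h and 0 for the line difference at 24 h, and it moved no other count of members by more than 1.5 times.

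Without 1 replicate at a time, the counts ran from 1 to 2 in H929 at 6 h, 32 to 42 in H929 at 24 h, 2 to 4 in MM1S at 6 h and 1 to 13 in MM1S at 24 h. They ran from 0 to 0 and 0 to 28 for the line differences at 6 h and 24 h, 1 to 20 and 0 to 1 for the time differences in H929 and MM1S, 43 to 46 between lines with DMSO, 0 to 0 for H929 DMSO over time and 34 to 44 for MM1S DMSO over time. The scale of YKL over DMSO libraries ran from 0.815 to 0.978 and 0.485 to 0.675 in H929 and from 0.682 to 0.745 and 0.70 to 1.04 in MM1S, at 6 h and 24 h.

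Of single genes, EIF2S1 in H929 at 24 h became 0.14 with either rescaling, EIF4EBP2 became 0.39 there with either, and EIF4EBP2 in MM1S at 6 h became 0.38 rescaled and 0.42 without the uneven libraries. Of the values of named members without 1 replicate, 592 kept their direction and side of the threshold, 65 lost the call and 3 gained it. Rescaling kept 82, with 7 lost, 9 gained and 3 reversed. The unknown depth limits what can be said of members near 1 FPKM.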
